A study of Homo sapiens with 8 samples.

Results

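The genes described here are the antioxidant genes of human embryonic stem cells (hESCs): NRF2 (gene NFE2L2) with its partners, the enzymes that make and use glutathione, the thioredoxin and peroxiredoxin system, superoxide dismutases and catalase, suppliers of NADPH, transporters of glutathione conjugates and further stress and repair genes. They are listed by function, with the pentose phosphate enzymes TKT and TALDO1 placed beside the suppliers of NADPH. Of 54 genes listed, 53 were found among the 62086 gene identifiers of the count table, and all 53 passed the filter on low counts, which left 20165 genes in all. SOD2 is not analysed here.

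RNA was sequenced from BG01, an established hESC line, which was kept in the feeder-free medium mTeSR. The cells had been given 5 µg/mL of anti-M8nAb, an antibody that neutralizes the secreted glycoprotein MFGE-8, or 5 µg/mL of normal mouse IgG as the isotype control. RNA was taken after 12 or 24 h, which gave 4 groups: anti-M8nAb at 12 h, IgG at 12 h, anti-M8nAb at 24 h and IgG at 24 h, with 2 libraries in each and 8 in all. The labels call the 2 libraries biological replicates and do not say whether each had its own culture. The p-values therefore cover the spread between these libraries, which may be technical. All libraries come from 1 line without a genetic change.

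NRF2 is a transcription factor that KEAP1 holds in the cytoplasm and marks for degradation. Oxidants and electrophiles modify KEAP1, and NRF2 then enters the nucleus, pairs with a small MAF protein and binds antioxidant response elements, a place for which BACH1 competes as a repressor. Its targets include the cystine transporter and the ligase that supply glutathione, the tripeptide that peroxidases and transferases use against peroxides and electrophiles, and enzymes that regenerate NADPH, which feeds both the glutathione and the thioredoxin systems.

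The element that NRF2 binds was looked for as the letters TGACNNNGC, on both strands, in windows from 250 bases before to 50 bases after each start in RefSeq on GRCh38.p14. Such a match was in 13.3% of 35116 windows of all genes. Of 59 windows of 42 members in the RefSeq table, 15 held one (25.4%), and these belonged to 14 members. The letters TGANTCA, the AP-1 element, which can overlap it, were in 7.71% of all windows and in 5 of the 59. At 24 h the median log2 fold change was 0.15 in the 14 members with TGACNNNGC in these windows and 0.17 in the 28 without it there. Matches farther from a start were not looked for, so the 28 may hold the element elsewhere. Matches that lie before the start and outside annotated exons, in members whose levels are given in full below, are shown on the strand of the gene, with the match in capitals. The start is that of the RefSeq window. The GSTO1 stretch lies inside the span of the gene given below, chr10:104235356-104267459, and not before it.
GSTO1, chr10:104254644-104254696, plus strand, match beginning 226 bases before the start: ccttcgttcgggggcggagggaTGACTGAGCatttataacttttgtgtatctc
ME1, chr6:83431158-83431210, minus strand, match beginning 137 bases before the start and overlapping a TGANTCA: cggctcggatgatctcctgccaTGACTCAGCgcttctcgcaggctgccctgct
ABCC4, chr13:95301570-95301622, minus strand, match beginning 149 bases before the start and read on the opposite strand: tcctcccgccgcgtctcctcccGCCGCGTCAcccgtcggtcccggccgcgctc
At 24 h GSTO1 and ME1 were higher and ABCC4 was lower with anti-M8nAb. A match is a description of the letters, and binding was not measured.

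After 24 h of anti-M8nAb the heme-degrading enzyme HMOX1, the cystine transporter SLC7A11 and the small MAF gene MAFF were over 2-fold above IgG. The thioredoxin inhibitor TXNIP was 2.00-fold higher, at the 2-fold threshold, and no member was 2-fold lower. The glutathione conjugate pump ABCC1, the related pump ABCC4, the sulfiredoxin SRXN1, the transferase GSTM3 and the small MAF gene MAFK were lower at both times. Most peroxiredoxins, glutathione reductase, both enzymes that complete or assist glutathione synthesis (GSS and GCLM), thioredoxin, its reductase and SOD1 did not pass the test at either time. Levels are given in CPM, counts relative to the TMM-scaled size of the library. Differences are log2 fold changes of anti-M8nAb over IgG within a time. They were tested two-sided in edgeR (quasi-likelihood), the p-values were adjusted over all 20165 genes by the Benjamini-Hochberg method, and a gene passed at an adjusted p under 0.05. Where a fit without a library or with another tool is given in parentheses, the values are its log2 fold change and its adjusted p.

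After 12 h, 12 members were higher, 12 were lower and 29 did not pass, so that 22.6% of the members were called on each side, against 15.8% (higher) and 16.4% (lower) of all genes tested. After 24 h, 22 were higher (41.5%, against 21.2% of all genes), 7 were lower (13.2%, against 21.3%) and 24 did not pass. Past a 2-fold change as well there were 0 members on either side at 12 h, against 3.40% (higher) and 2.97% (lower) of all genes, and 4 higher and 0 lower at 24 h, against 4.76% and 4.84%. Of the members, 11 were higher at both times (10.1% of all genes were) and 7 lower at both (10.7%). Another 6 passed at 12 h alone, 11 at 24 h alone and 18 at neither, and 0 passed in opposite directions. For these further counts the shares of all genes are not given here. The median log2 fold change of the members was 0.04 at 12 h and 0.15 at 24 h, and that of all genes was 0.00 at both. Whatever its sign, the log2 fold change had a median size of 0.18 at 12 h and 0.25 at 24 h in the members, against 0.26 and 0.32 in all genes. Both anti-M8nAb libraries lay outside the range of the IgG libraries in 40 members at 12 h and in 41 at 24 h, against 66.3% and 69.0% of all genes.

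When edgeR took the size factors of DESeq2 instead of TMM, the numbers stayed at 12 on each side after 12 h, and at 22 (higher) and 7 (lower) after 24 h. In limma on log2(FPKM + 0.1), where the test, the filter and the scaling all differ, 5 members passed as higher and 11 as lower at 12 h, and 15 as higher and 8 as lower at 24 h. The median log2 fold change of the members was then -0.03 at 12 h and 0.04 at 24 h. There the log2 fold changes of all genes sat lower by a median of 0.06 at 12 h and 0.09 at 24 h. Without the second IgG library at 12 h, 6 members were lower at 12 h, and without the second anti-M8nAb library 7 were. Without the first IgG library at 24 h, or without the first anti-M8nAb library, 4 were lower at 24 h. In bulk RNA, fewer cells of a type and less RNA per cell cannot be told apart.

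**Figure D1:**
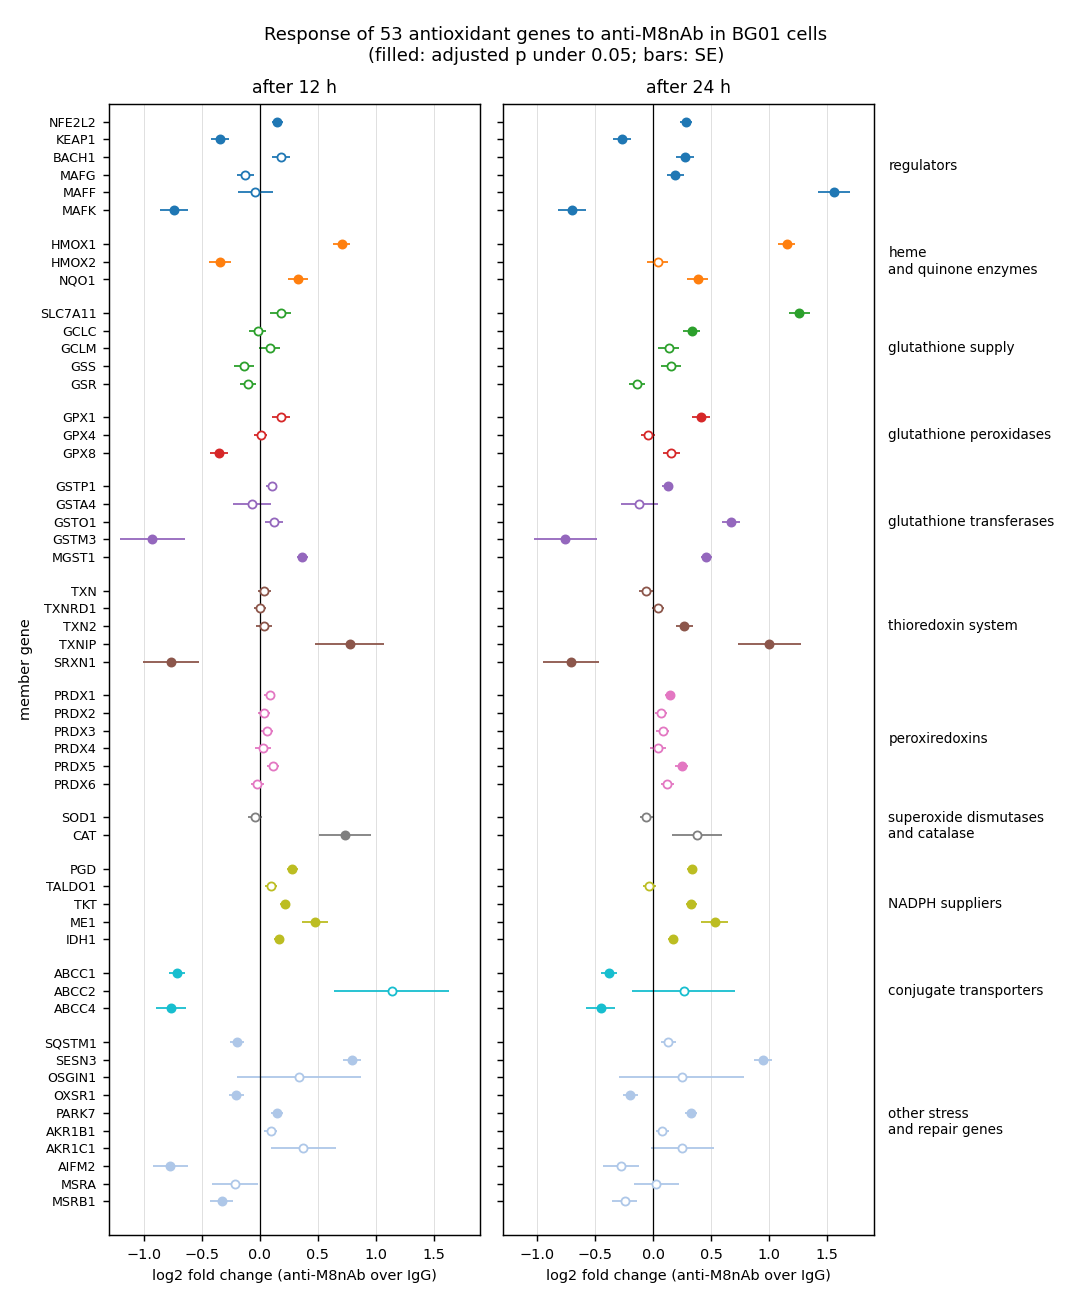
Log2 fold change of anti-M8nAb over IgG (horizontal axis) for each of the 53 members (rows, grouped by role) after 12 h (left) and 24 h (right), with bars for the SE and filled points for an adjusted p under 0.05. Most members lie close to 0, while MAFF, SLC7A11, HMOX1 and TXNIP reach 1.00 or more at 24 h and MAFK, GSTM3 and SRXN1 lie below -0.70 at 12 h and at 24 h.

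Of the 6 regulators, 1 passed as higher and 2 as lower after 12 h, against 15.8% (higher) and 16.4% (lower) of all genes. After 24 h 4 passed as higher and 2 as lower, against 21.2% and 21.3% of all genes. NFE2L2, which encodes NRF2 itself, was higher at both times, by 0.15 (SE 0.05, adjusted p = 0.0168) and 0.28 (SE 0.05, adjusted p = 9.01e-06) on the log2 scale. KEAP1, the adaptor that targets NRF2 for degradation, was lower at both times, at -0.34 (SE 0.07, adjusted p = 0.000308) and -0.27 (SE 0.08, adjusted p = 0.00356). BACH1, the repressor, had 0.18 (SE 0.08, adjusted p = 0.0678) at 12 h, which did not pass, and rose by 0.27 (SE 0.08, adjusted p = 0.00344) at 24 h. Genes on the opposite strand overlap 24.8% of the exon sequence of NFE2L2, with HNRNPA3 as the largest partner, so reads may be shared. HNRNPA3 was higher too, by 0.32 at 12 h and 0.34 at 24 h, and whether this moved the value of NFE2L2 was not tested. The call of NFE2L2 at 12 h was lost without the second IgG library (0.13, adjusted p = 0.181) and without the first anti-M8nAb library (0.11, adjusted p = 0.193). At 24 h that of KEAP1 was lost without the second IgG library (-0.20, adjusted p = 0.0687) or the second anti-M8nAb library (-0.21, adjusted p = 0.0691), and that of BACH1 without the second IgG library (0.19, adjusted p = 0.0748).

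The small MAF genes, whose proteins pair with NRF2 or with BACH1, did not move together. MAFF (chr22:38200767-38216507, positions on GRCh38) was at 8.98 and 9.16 CPM with anti-M8nAb at 12 h, against 9.81 and 8.83 CPM with IgG, a difference of -0.04 (SE 0.15, adjusted p = 0.873) on the log2 scale. Its levels after 24 h were 23.1 and 28.01 CPM with anti-M8nAb, against 9.64 and 7.71 CPM with IgG, 1.56 (SE 0.14, adjusted p = 4.52e-13). The 12 h libraries overlapped, while at 24 h both anti-M8nAb libraries stood far above all other libraries, a 2.95-fold change and the largest among the members. MAFK (chr7:1530702-1543043) was at 12.2 and 13.4 CPM with anti-M8nAb against 20.5 and 22.3 CPM with IgG at 12 h, -0.74 (SE 0.12, adjusted p = 3.68e-06). At 24 h the levels were 12.7 and 12.9 CPM with anti-M8nAb and 19.2 and 22.4 CPM with IgG, -0.70 (SE 0.12, adjusted p = 5.76e-06). All 4 anti-M8nAb libraries were below all 4 IgG libraries. Of its exon sequence 18.1% overlaps genes on the opposite strand, with TMEM184A as the largest partner. TMEM184A was also lower (-0.64 at 12 h and -1.19 at 24 h) at a mean of 5.46 CPM. Its part in the lower level of MAFK was not tested.

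MAFG (chr17:81918270-81927735), the small MAF gene with the most counts here, was at 60.3 and 68.5 CPM with anti-M8nAb against 71.3 and 69.4 CPM with IgG at 12 h, -0.13 (SE 0.07, adjusted p = 0.189). The 24 h levels were 74.3 and 77.1 CPM with anti-M8nAb and 63.6 and 69.2 CPM with IgG, 0.19 (SE 0.07, adjusted p = 0.0310). The anti-M8nAb libraries lay below those of IgG at 12 h and above them at 24 h, and the call at 24 h was lost under several settings. It did not pass in DESeq2 (0.19, adjusted p = 0.0790), and in edgeR without the first IgG library at 24 h (0.12, adjusted p = 0.273), without the second anti-M8nAb library at 24 h (0.16, adjusted p = 0.160), without the first anti-M8nAb library at 24 h (0.22, adjusted p = 0.0522), and without the first (0.18, adjusted p = 0.0587) or second (0.18, adjusted p = 0.0564) IgG library at 12 h.

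HMOX1 (chr22:35380361-35394214), the inducible heme oxygenase and a classical NRF2 target, was higher at both times. It was at 64.7 and 72.4 CPM with anti-M8nAb at 12 h, against 40.6 and 43.6 CPM with IgG, 0.70 (SE 0.08, adjusted p = 4.23e-10), and at 94.9 and 92.5 CPM with anti-M8nAb at 24 h, against 41.3 and 43.1 CPM with IgG, 1.15 (SE 0.08, adjusted p = 3.78e-17). The anti-M8nAb libraries were 1.63-fold above those of IgG at 12 h and 2.22-fold at 24 h, while all 4 IgG libraries lay between 40.6 and 43.6 CPM. NQO1, the quinone reductase, was higher by 0.33 (SE 0.08, adjusted p = 0.00215) at 12 h and 0.38 (SE 0.09, adjusted p = 0.000382) at 24 h. The call at 12 h was lost without the first anti-M8nAb library (0.23, adjusted p = 0.107). HMOX2 (chr16:4474690-4510347), the constitutive heme oxygenase, was at 33.8 and 29.3 CPM with anti-M8nAb against 38.1 and 42.0 CPM with IgG at 12 h, -0.34 (SE 0.09, adjusted p = 0.00307). By 24 h it stood at 32.9 and 34.7 CPM with anti-M8nAb and 33.2 and 32.6 CPM with IgG, 0.04 (SE 0.09, adjusted p = 0.770), and the libraries overlapped. The lower level of HMOX2 at 12 h did not pass without the second IgG library (-0.26, adjusted p = 0.108) or without the second anti-M8nAb library (-0.24, adjusted p = 0.130).

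Of the 5 genes of glutathione supply, 0 passed at 12 h, where 15.8% of all genes were higher and 16.4% lower. At 24 h 2 were higher and 0 lower, against 21.2% and 21.3% of all genes. SLC7A11 (chr4:138164097-138242349) encodes the subunit of system xc- that brings cystine into the cell. It was at 44.3 and 38.9 CPM with anti-M8nAb against 39.0 and 34.5 CPM with IgG at 12 h, 0.18 (SE 0.09, adjusted p = 0.128), with overlapping libraries. After 24 h the levels were 64.8 and 67.3 CPM with anti-M8nAb and 29.6 and 25.6 CPM with IgG, 1.26 (SE 0.09, adjusted p = 6.67e-16), a 2.39-fold change. The anti-M8nAb libraries of 24 h were the highest of all 8, and the IgG libraries of 24 h were the lowest. GCLC (chr6:53497341-53616970), the catalytic subunit of the ligase that starts glutathione synthesis, was at 66.5 and 70.6 CPM with anti-M8nAb and 69.8 and 69.2 CPM with IgG at 12 h, -0.02 (SE 0.07, adjusted p = 0.876). Its levels after 24 h were 73.3 and 77.2 CPM with anti-M8nAb and 64.4 and 55.3 CPM with IgG, 0.33 (SE 0.07, adjusted p = 0.000278), with no overlap. GCLM, the modifier subunit of that ligase, had 0.08 and 0.13 at 12 and 24 h, glutathione synthetase (GSS) -0.14 and 0.15, and glutathione reductase (GSR), which returns oxidized glutathione to its reduced form, -0.10 and -0.14. None of these 3 passed, with the smallest adjusted p at 0.0969 for GSR at 24 h.

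Among the 3 glutathione peroxidases, GPX4, which protects membrane lipids, had 0.01 at 12 h and -0.05 at 24 h and did not pass. GPX1, the abundant cytosolic peroxidase, had 0.18 (SE 0.08, adjusted p = 0.0655) at 12 h and was higher at 24 h, by 0.41 (SE 0.08, adjusted p = 2.4e-05). Without the first IgG library at 24 h it still passed, at a smaller size (0.26, adjusted p = 0.0121). Pseudogenes named for GPX1 held 18.2% of the counts of the gene and these pseudogenes together, so its counts are uncertain to that extent. GPX8 (chr5:55160167-55167297), a peroxidase of the endoplasmic reticulum, was at 46.5 and 49.96 CPM with anti-M8nAb against 59.4 and 63.7 CPM with IgG at 12 h, -0.35 (SE 0.08, adjusted p = 0.000356). The 24 h levels were 66.4 and 70.8 CPM with anti-M8nAb and 65.1 and 58.0 CPM with IgG, 0.16 (SE 0.08, adjusted p = 0.0913), which did not pass although the libraries did not overlap.

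Among the 5 glutathione transferases, GSTO1 (chr10:104235356-104267459), an omega class transferase that also reduces dehydroascorbate, was at 46.1 and 49.4 CPM with anti-M8nAb against 43.5 and 44.4 CPM with IgG at 12 h, 0.12 (SE 0.08, adjusted p = 0.259). By 24 h it stood at 68.5 and 71.0 CPM with anti-M8nAb and 42.4 and 45.5 CPM with IgG, 0.67 (SE 0.08, adjusted p = 1.24e-09). The mean level with IgG was 43.9 CPM at both times, and the anti-M8nAb libraries of 24 h stood above all others. GSTM3 (chr1:109733932-109741038), a mu class transferase at a low level, was at 1.77 and 1.64 CPM with anti-M8nAb against 2.995 and 3.50 CPM with IgG at 12 h, -0.93 (SE 0.28, adjusted p = 0.00845). The later levels were 1.95 and 2.00 CPM with anti-M8nAb against 3.64 and 3.04 CPM with IgG at 24 h, -0.76 (SE 0.27, adjusted p = 0.0212). All 4 anti-M8nAb libraries were below all 4 IgG libraries. Pseudogenes named for GSTM3 held 18.9% of the combined counts. Its calls at this depth were not stable: without the second IgG library at 12 h (-0.80, adjusted p = 0.0923), the second anti-M8nAb library at 12 h (-0.87, adjusted p = 0.0546), the first IgG library at 24 h (-0.63, adjusted p = 0.140), or the first (-0.74, adjusted p = 0.0856) or second (-0.78, adjusted p = 0.0731) anti-M8nAb library at 24 h, the call of that time was lost, as it was in DESeq2 at 24 h (adjusted p = 0.0911). MGST1, a membrane-bound transferase, was higher by 0.37 (SE 0.05, adjusted p = 7.07e-08) at 12 h and 0.46 (SE 0.05, adjusted p = 1.64e-10) at 24 h. GSTP1, the most abundant transferase, had 0.10 (SE 0.05, adjusted p = 0.109) at 12 h and 0.12 (SE 0.05, adjusted p = 0.0335) at 24 h, and the call at 24 h was lost in DESeq2 (0.12, adjusted p = 0.0546) and without the first IgG library at 24 h (0.04, adjusted p = 0.573), while without the second it was larger (0.20, adjusted p = 0.00257). GSTA4, which conjugates products of lipid peroxidation, had -0.07 and -0.12 and did not pass.

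**Figure D2:**
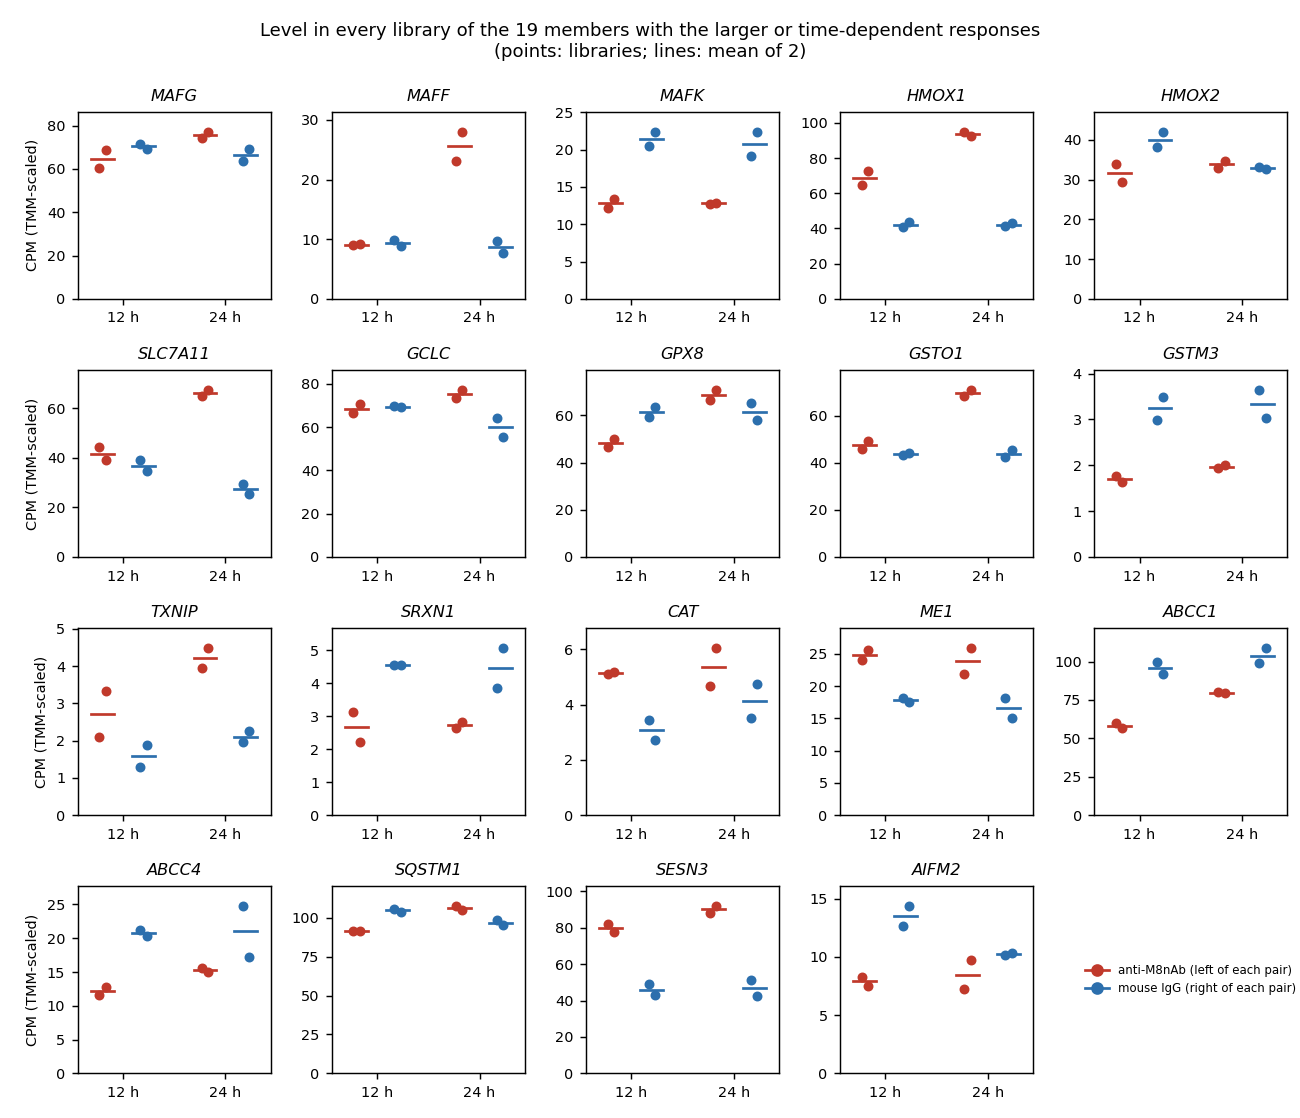
Level in CPM after TMM scaling (vertical axes, from 0) of the 19 members with full values, with anti-M8nAb to the left of IgG at each time, a point for each library and a line for the mean of 2 libraries. MAFF, SLC7A11 and GSTO1 stand out at 24 h alone, HMOX1 and SESN3 are higher at both times, and MAFK, SRXN1, GSTM3, ABCC1 and ABCC4 are lower at both.

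In the thioredoxin system, thioredoxin (TXN) had 0.04 at 12 h and -0.06 at 24 h, and its cytosolic reductase TXNRD1, a selenoprotein, 0.00 and 0.04, and neither passed. Mitochondrial thioredoxin, TXN2, had 0.04 at 12 h and was higher at 24 h, by 0.27 (SE 0.07, adjusted p = 0.00221). TXNIP (chr1:145992435-145996579), which binds and inhibits thioredoxin, was at 2.11 and 3.33 CPM with anti-M8nAb against 1.29 and 1.89 CPM with IgG at 12 h, 0.77 (SE 0.30, adjusted p = 0.0414). The later levels were 3.94 and 4.48 CPM with anti-M8nAb against 1.95 and 2.25 CPM with IgG at 24 h, 1.00 (SE 0.27, adjusted p = 0.00254). The libraries of each time did not overlap. Its counts were low, at 28 to 92 in a library. The call at 24 h was lost in limma on log2(FPKM + 0.1) (0.82, adjusted p = 0.0617). The call at 12 h was lost in DESeq2 (0.77, adjusted p = 0.136), without the first IgG library (0.53, adjusted p = 0.320) and without the second anti-M8nAb library (0.41, adjusted p = 0.465). SRXN1 (chr20:646615-653200), the sulfiredoxin that repairs overoxidized peroxiredoxins and in other cells an NRF2 target, was lower at both times. It was at 3.14 and 2.22 CPM with anti-M8nAb against 4.56 and 4.55 CPM with IgG at 12 h, -0.77 (SE 0.24, adjusted p = 0.0121). The later levels were 2.63 and 2.83 CPM with anti-M8nAb against 3.86 and 5.07 CPM with IgG at 24 h, -0.71 (SE 0.24, adjusted p = 0.0147). All 4 anti-M8nAb libraries were below all 4 IgG libraries. In DESeq2 neither call passed (adjusted p = 0.0569 at 12 h and 0.0697 at 24 h). Without the second anti-M8nAb library at 12 h (-0.53, adjusted p = 0.177), the first (-0.76, adjusted p = 0.0628) or second (-0.76, adjusted p = 0.0610) IgG library at 12 h, the second IgG library at 24 h (-0.50, adjusted p = 0.193) or the first anti-M8nAb library at 24 h (-0.66, adjusted p = 0.0802), the call of that time was lost.

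The 6 peroxiredoxins, which reduce hydrogen peroxide with electrons from thioredoxin or glutathione, had small log2 fold changes. None of the 6 passed at 12 h, where 15.8% of all genes were higher and 16.4% lower. At that time their log2 fold changes lay between -0.02 (PRDX6) and 0.11 (PRDX5). At 24 h PRDX1, the cytosolic main form, was higher by 0.15 (SE 0.05, adjusted p = 0.00826) and PRDX5, found in mitochondria, peroxisomes and cytosol, by 0.24 (SE 0.06, adjusted p = 0.000321). PRDX2, PRDX3, PRDX4 and PRDX6 had 0.07, 0.08, 0.04 and 0.12 at 24 h and did not pass. PRDX1 shares 29.8% of its exon sequence with genes on the opposite strand, with MMACHC as the largest partner. MMACHC had 0.08 at 12 h and 0.19 at 24 h. The call of PRDX1 was lost without the second IgG library at 24 h (log2 fold change 0.12) or the second anti-M8nAb library at 24 h (log2 fold change 0.12). The copper-zinc superoxide dismutase SOD1 had -0.04 at 12 h and -0.06 at 24 h and did not pass. CAT (chr11:34438934-34472060), catalase of the peroxisome, was at 5.10 and 5.16 CPM with anti-M8nAb against 3.46 and 2.71 CPM with IgG at 12 h, 0.73 (SE 0.23, adjusted p = 0.0101). At 24 h it was at 4.67 and 6.04 CPM with anti-M8nAb and 3.51 and 4.76 CPM with IgG, 0.37 (SE 0.22, adjusted p = 0.165), with overlapping libraries. The call at 12 h was lost without the second IgG library (0.58, adjusted p = 0.140) and in DESeq2 (0.73, adjusted p = 0.0513).

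Of the 5 genes in the group of NADPH suppliers, 4 were higher at both times, as were 10.1% of all genes. TKT and TALDO1, which belong to this group, do not make NADPH themselves. PGD, a dehydrogenase of the oxidative pentose phosphate pathway, was higher by 0.28 (SE 0.04, adjusted p = 2.53e-06) at 12 h and 0.33 (SE 0.04, adjusted p = 4.51e-08) at 24 h, transketolase (TKT) by 0.22 (SE 0.04, adjusted p = 0.000140) at 12 h and 0.33 (SE 0.04, adjusted p = 3.92e-08) at 24 h, and the cytosolic isocitrate dehydrogenase IDH1 by 0.16 (SE 0.05, adjusted p = 0.00461) and 0.17 (SE 0.05, adjusted p = 0.00194). Without the first IgG library at 12 h the call of IDH1 was lost (0.15, adjusted p = 0.0843). ME1 (chr6:83210402-83431051), the cytosolic malic enzyme, was at 24.0 and 25.5 CPM with anti-M8nAb against 18.2 and 17.5 CPM with IgG at 12 h, 0.47 (SE 0.11, adjusted p = 0.00106). The later levels were 21.8 and 25.9 CPM with anti-M8nAb against 18.1 and 14.98 CPM with IgG at 24 h, 0.53 (SE 0.11, adjusted p = 0.000196). All 4 anti-M8nAb libraries were above all 4 IgG libraries. Transaldolase (TALDO1) had 0.09 and -0.03 and did not pass.

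Of the 3 pumps that export glutathione conjugates, 2 were lower at both times, as were 10.7% of all genes. ABCC1 (chr16:15949138-16143257), known as MRP1, was at 60.2 and 56.5 CPM with anti-M8nAb against 99.7 and 91.8 CPM with IgG at 12 h, -0.71 (SE 0.07, adjusted p = 2.45e-11). The later levels were 80.1 and 79.3 CPM with anti-M8nAb against 98.9 and 109 CPM with IgG at 24 h, -0.38 (SE 0.07, adjusted p = 9.59e-06). ABCC4 (chr13:95019835-95301475), known as MRP4, was at 11.6 and 12.8 CPM with anti-M8nAb against 21.2 and 20.3 CPM with IgG at 12 h, -0.77 (SE 0.13, adjusted p = 9.44e-06). Its levels after 24 h were 15.6 and 15.1 CPM with anti-M8nAb and 24.7 and 17.3 CPM with IgG, -0.46 (SE 0.13, adjusted p = 0.00337). In both genes all 4 anti-M8nAb libraries were below all 4 IgG libraries. The ABCC4 value at 24 h rested on IgG libraries that lay apart: without the first it did not pass (-0.18, adjusted p = 0.321), and without the second it was larger (-0.69, adjusted p = 0.000131). ABCC2, the canalicular pump of liver cells, was near the floor of the measurement, at 1.28 and 0.965 CPM with anti-M8nAb against 0.645 and 0.368 CPM with IgG at 12 h, and its log2 fold changes of 1.14 (SE 0.49, adjusted p = 0.0732) and 0.26 (SE 0.44, adjusted p = 0.669) did not pass.

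Among the 10 further stress and repair genes, SESN3 (chr11:95165513-95232541), a sestrin that restrains mTORC1 signalling, was at 82.2 and 77.8 CPM with anti-M8nAb against 49.1 and 43.1 CPM with IgG at 12 h, 0.80 (SE 0.08, adjusted p = 4.22e-11). The 24 h levels were 88.4 and 91.9 CPM with anti-M8nAb and 51.1 and 42.6 CPM with IgG, 0.94 (SE 0.08, adjusted p = 9.53e-14). All 4 anti-M8nAb libraries were above all 4 IgG libraries. SQSTM1 (chr5:179806398-179838078), or p62, an autophagy receptor that also binds KEAP1, was at 91.4 and 91.4 CPM with anti-M8nAb against 106 and 104 CPM with IgG at 12 h, -0.20 (SE 0.06, adjusted p = 0.0130). The later levels were 107 and 105 CPM with anti-M8nAb against 98.5 and 95.4 CPM with IgG at 24 h, 0.13 (SE 0.06, adjusted p = 0.0859). The anti-M8nAb libraries were below those of IgG at 12 h and above them at 24 h, where the difference did not pass. The call at 12 h was lost without any 1 of the 4 libraries of that time, as without the first IgG library (-0.18, adjusted p = 0.126). Genes on the opposite strand overlap 22.4% of the exon sequence of SQSTM1, with MRNIP as the largest partner. MRNIP had log2 fold changes of -0.16 at 12 h and 0.18 at 24 h, and its part was not tested.

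AIFM2 (chr10:70098223-70132934), also called FSP1, a reductase of coenzyme Q that protects against lipid peroxidation, was at 8.29 and 7.52 CPM with anti-M8nAb against 12.7 and 14.3 CPM with IgG at 12 h, -0.77 (SE 0.15, adjusted p = 8.43e-05). By 24 h it stood at 7.20 and 9.69 CPM with anti-M8nAb and 10.1 and 10.4 CPM with IgG, -0.28 (SE 0.15, adjusted p = 0.149), which did not pass. Genes on the opposite strand overlap 19.2% of the exon sequence of AIFM2, with MACROH2A2 as the largest partner. MACROH2A2 had log2 fold changes of -0.36 and -0.53 and was lower both times, and its part was not tested. PARK7 (DJ-1), a sensor of oxidation, was higher by 0.15 (SE 0.05, adjusted p = 0.0213) at 12 h and 0.32 (SE 0.05, adjusted p = 1.02e-06) at 24 h, and its 12 h call was lost without any 1 of the 4 libraries of that time, with adjusted p = 0.211 without the first IgG library. The stress kinase OXSR1 was lower at both times, at -0.20 (SE 0.07, adjusted p = 0.0145) at 12 h and -0.20 (SE 0.07, adjusted p = 0.0129) at 24 h, and at 12 h its call was likewise lost without any 1 of the 4 libraries, with adjusted p = 0.112 without the first IgG library. At 24 h it was lost without the first IgG library (-0.16, adjusted p = 0.0782) or the first anti-M8nAb library (-0.19, adjusted p = 0.0655). The methionine sulfoxide reductase MSRB1, a selenoprotein, was lower at 12 h at -0.33 (SE 0.10, adjusted p = 0.00963) and had -0.25 (SE 0.11, adjusted p = 0.0549) at 24 h, and the 12 h call was lost without the second IgG library (-0.25, adjusted p = 0.172) or the first anti-M8nAb library (-0.22, adjusted p = 0.225). MSRA, the other such reductase, and the aldo-keto reductases AKR1B1 and AKR1C1 did not pass, with 0.03, 0.08 and 0.25 at 24 h, and AKR1C1 has close paralogs that can share its reads. OSGIN1, at 0.772 CPM or less in every library, had 0.24 (SE 0.54) at 24 h, so a change of its level was not detectable at this depth.

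The response to anti-M8nAb at 24 h was set against that at 12 h in a contrast between the times. The difference passed for 10 members (12.3% of all genes did), and in all 10 the response at 24 h was the more positive one. The shares of all genes by direction are not given here. Among 91 other genes of the same pathways, described below, it passed for 17, with 10 more positive and 7 more negative at 24 h. The difference was 1.60 (SE 0.20, adjusted p = 1.13e-07) for MAFF, 1.08 (SE 0.13, adjusted p = 2.01e-08) for SLC7A11, 0.55 (SE 0.11, adjusted p = 0.000457) for GSTO1, 0.51 (SE 0.11, adjusted p = 0.000806) for GPX8 and 0.45 (SE 0.11, adjusted p = 0.00299) for HMOX1. For 5 others it was smaller, with 0.38 for HMOX2, 0.35 for GCLC, 0.33 for ABCC1, 0.33 for SQSTM1 and 0.32 for MAFG, and adjusted p-values between 0.00914 and 0.0447. The response of MAFF, SLC7A11, GSTO1, GCLC and MAFG passed at 24 h and not at 12 h, though that of MAFG was lost under several settings. HMOX2, GPX8 and SQSTM1 were lower at 12 h and did not pass at 24 h, and ABCC1 was lower at both times but less so at 24 h. The difference passed for 5 members without the first IgG library at 12 h, and also for 5 without the second, where that of HMOX1 did not pass (0.38, adjusted p = 0.0567).

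**Figure D3:**
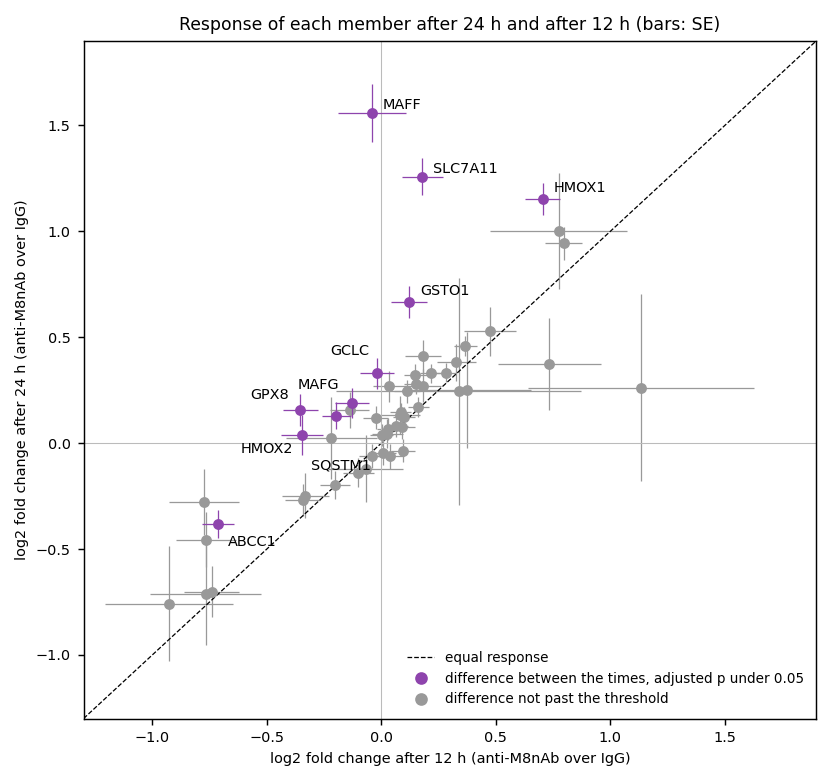
Log2 fold change of anti-M8nAb over IgG after 24 h (vertical axis) against that after 12 h (horizontal axis) for the 53 members, with bars for the SE and a dashed line of equal response. The 10 members whose responses differed between the times (named) all lie above the line, with MAFF (1.56 at 24 h, -0.04 at 12 h) and SLC7A11 (1.26 at 24 h, 0.18 at 12 h) farthest from it.

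The IgG libraries of both times were also compared. Between 24 h and 12 h of IgG, 8 of the 53 members were lower and 0 higher at an adjusted p under 0.05. Of all genes 13.7% passed in either direction, and their shares by direction are not given here. Among the 91 other genes of the same pathways, 7 were higher and 9 lower. The 8 members were MSRB1 (-0.45), SLC7A11 (-0.41 (SE 0.09, adjusted p = 0.00160)), NQO1 (-0.40), HMOX2 (-0.28), KEAP1 (-0.24), TXNRD1 (-0.23), GCLC (-0.22) and PARK7 (-0.15), each as a log2 fold change of 24 h over 12 h. For SLC7A11, the anti-M8nAb libraries were at 64.8 and 67.3 CPM at 24 h and 44.3 and 38.9 CPM at 12 h, and those of IgG at 29.6 and 25.6 CPM at 24 h and 39.0 and 34.5 CPM at 12 h, so that the libraries of each antibody lay in opposite order over time. The IgG levels of MAFF, HMOX1, GSTO1 and GPX8 did not pass this test, at -0.10, 0.00, 0.00 and -0.00. Without the second IgG library of 12 h, 2 members were lower with time, and without the first 3, while leaving out either IgG library of 24 h left 5.

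Levels between genes were compared in FPKM, which is per length of gene. In the 4 IgG libraries the median FPKM was highest for PRDX1 (342), GSTP1 (298), PRDX5 (219.8), PGD (173) and TXN (171), whose ranges overlapped for PGD and TXN alone, and lowest for ABCC2 (0.0916), OSGIN1 (0.107) and AKR1C1 (0.247), of which ABCC2 and OSGIN1 overlapped. The median of the members' mean FPKM over all 8 libraries was 14.8, against 3.04 for all genes tested. Genes with more counts can pass with smaller changes, and the part of this in the shares of members called was not tested. Among the members that were 2-fold higher at 24 h, HMOX1 was at 18.8 FPKM, SLC7A11 at 3.39, MAFF at 1.68 and TXNIP at 0.545 in the IgG libraries. NFE2L2 was at 29.4 FPKM and KEAP1 at 19.5. Peroxiredoxins made up 33.5% of the members' summed FPKM with anti-M8nAb and 34.2% with IgG at 12 h, and 33.8% with anti-M8nAb and 34.2% with IgG at 24 h. The group of NADPH suppliers, TKT and TALDO1 included, made up 19.3% with anti-M8nAb and 17.7% with IgG at 12 h. At 24 h this group made up 18.8% with anti-M8nAb and 17.8% with IgG.

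**Figure D4:**
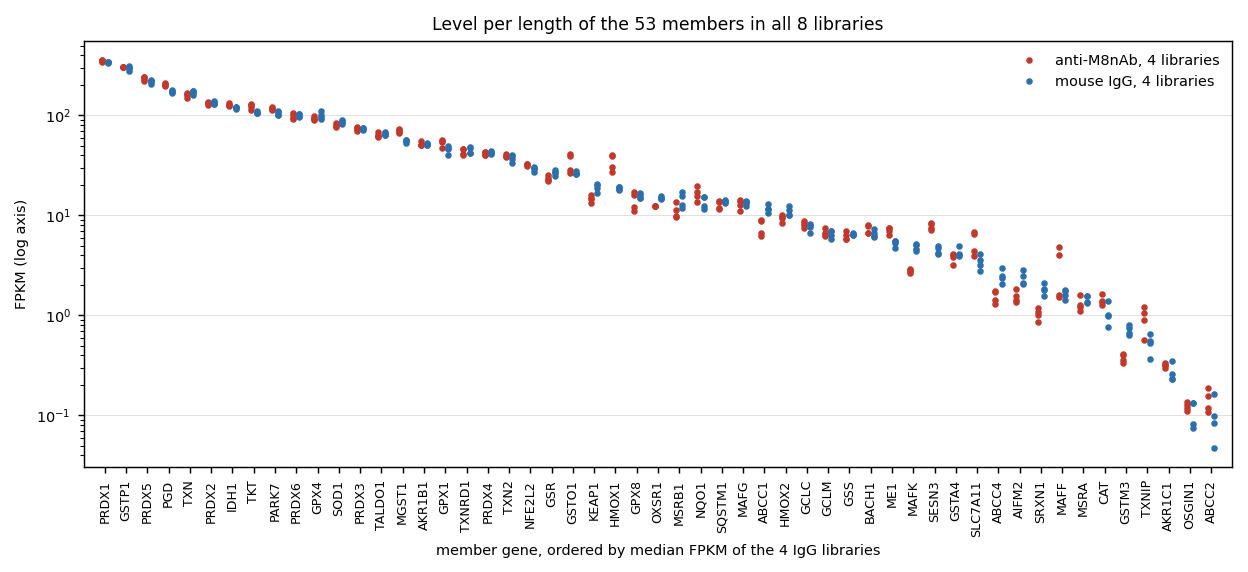
FPKM (vertical, log axis) of the 53 members in all 8 libraries, ordered by the median of the 4 IgG libraries, with anti-M8nAb points to the left of IgG points for each gene. The order runs from PRDX1, at 334 to 357 FPKM, to ABCC2, at 0.0474 to 0.188 FPKM, and anti-M8nAb and IgG points lie apart for HMOX1, MAFK and SRXN1.

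Beside the members, 97 other genes of the same pathways were listed, of which 91 passed the filter. Among these 91, 18 passed as higher (19.8%, against 15.8% of all genes) and 20 as lower (21.98%, against 16.4%) at 12 h, with a median log2 fold change of -0.01. The numbers at 24 h were 31 higher (34.1%, against 21.2%) and 21 lower (23.1%, against 21.3%), with a median of 0.05. NFE2L3, a relative of NRF2, was at 59.5 and 54.9 CPM with anti-M8nAb against 133 and 137 CPM with IgG at 12 h and at 42.6 and 39.7 CPM with anti-M8nAb against 157 and 148 CPM with IgG at 24 h, -1.24 (SE 0.07, adjusted p = 1.74e-19) and -1.89 (SE 0.07, adjusted p = 1.92e-26) on the log2 scale. At 24 h this was the largest fall among these genes, while at 12 h ALDH1L2 had the lowest value. CBS, which begins the route from homocysteine to cysteine, was lower, at -0.54 (SE 0.08, adjusted p = 2.54e-07) at 12 h and -1.14 (SE 0.08, adjusted p = 2.97e-16) at 24 h. It has a near-identical copy, CBSL, in RefSeq, so its counts are uncertain. TXNRD2, the mitochondrial thioredoxin reductase, was higher by 0.40 (SE 0.10, adjusted p = 0.00273) and 1.5 (SE 0.10, adjusted p = 3.09e-17). PSTK, a kinase of selenocysteine synthesis, was higher by 0.93 (SE 0.14, adjusted p = 1.42e-06) at 12 h and 1.09 (SE 0.14, adjusted p = 1.57e-08) at 24 h, and ALDH1L2, a mitochondrial folate enzyme that yields NADPH, was lower, at -1.33 (SE 0.33, adjusted p = 0.00138) and -1.37 (SE 0.32, adjusted p = 0.000535). CHAC1, which degrades glutathione, was lower at 12 h and higher at 24 h, at -0.96 (SE 0.16, adjusted p = 8.3e-06) at 12 h and 0.53 (SE 0.14, adjusted p = 0.00122) at 24 h, and SESN2, a stress-induced sestrin, did the same, with -0.64 (SE 0.11, adjusted p = 1.79e-05) and 0.41 (SE 0.10, adjusted p = 0.000631). The difference between the times passed for both, at 1.49 (SE 0.21, adjusted p = 1.53e-06) for CHAC1 and 1.05 (SE 0.15, adjusted p = 1.75e-06) for SESN2. SLC3A2, the heavy chain that carries SLC7A11 to the membrane, had 0.07 and 0.11 and did not pass. Without the first or second IgG library of 12 h, 10 and 11 of the other pathway genes were higher at 12 h.

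Each library held between 21010400 and 21792716 counts over named genes. The summed level of 12 hESC markers was 7859 to 9507 CPM with anti-M8nAb and 7465 to 8531 CPM with IgG, with none at 0. Of 8 fibroblast markers, summed at 572 to 733 CPM with anti-M8nAb and 531 to 631 CPM with IgG, THY1 made up most, at 449 to 565 CPM with anti-M8nAb and 388 to 441 CPM with IgG, while DCN and LUM were at 0.589 CPM or less in every library and COL1A2 was lower with anti-M8nAb, by -0.60 at 12 h and -1.09 at 24 h on the log2 scale. Ectoderm markers summed to 197 to 257 CPM with anti-M8nAb and 169 to 183 CPM with IgG, and endoderm, mesoderm and trophoblast markers each summed to 20.7 CPM or less in every library. The anti-M8nAb libraries were above the IgG libraries of their time in the hESC, fibroblast, ectoderm and endoderm sums and below them in the trophoblast sum. Single markers did not all follow these sums. At 24 h 4 of the 12 hESC markers passed as higher and 3 as lower, against 21.2% and 21.3% of all genes. Of the 2 endoderm markers tested, 1 passed as higher and 1 as lower at 24 h. Of the 2 trophoblast markers tested, 1 passed as higher at both times, against the direction of the sum. The part of other cells in the members' values was not tested. The second anti-M8nAb library at 12 h had 5221 CPM on 993 pseudogenes, against 3518 in the first and 2397 to 2791 in the others.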

How the data were processed

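RNA-seq libraries were made from BG01 cells treated for 12 or 24 h with anti-M8nAb or with mouse IgG, and groups were taken from the GEO labels. The authors used Trimmomatic for trimming, STAR in 2-pass mode for alignment on GRCh38.p14, Picard for duplicates and HTSeq for counts of reads on Ensembl genes. The submitters' processing notes also name FastQC 0.11.9 and GATK. The deposited count table holds raw counts, and the deposited FPKM table was computed by the authors with RNAnorm. Each table has 4 further columns that were not used. The count table also has 1005 lines without a gene name, which hold 53.3 to 54.1% of all counts and stayed out of library sizes and tests. Whether counting used the strand is not given in the sources used here, so the overlap of exons with genes on the opposite strand is stated where it is 10% or more in a gene whose call it touches. It reached 10% in 7 members, among them NQO1 (19.4%) and PRDX2 (12.1%).

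All 62086 identifiers were paired with a symbol in GENCODE v44 (GRCh38), without the version. Genes passing edgeR's filterByExpr (20165) were scaled by TMM and fitted with a mean per group over all 8 libraries in edgeR 4.0.16 (R 4.3.3), and contrasts were tested two-sided by the quasi-likelihood method (Benjamini-Hochberg adjusted p under 0.05). The common biological coefficient of variation was 5.53%, and the variance between replicates was 2.28 to 4.50 times that of counting alone. The fit was also run on simulated counts, with log2 fold changes of 0.5 or more in size and the same variation for every gene. The simulation does not cover smaller changes, and its outcome is not given here. Alternatives were DESeq2 1.42.0, its size factors in edgeR, no filter or a mean of at least 1 CPM, each time alone, limma 3.58.1 on log2(FPKM + 1) or log2(FPKM + 0.1) for genes with a mean of at least 0.5 FPKM or all genes, protein-coding genes alone, a replicate block, and each library left out in turn, which leaves 1 library in its group, taken to vary like the others.

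The members and lists were chosen with earlier results of these data known. All 54 listed members are named. Levels in every library are given for the 19 that passed with a log2 fold change of 0.5 or more, higher or lower, or whose response differed between the times. Other pathway genes are named if they passed at 2-fold, besides TXNRD2, SESN2, CHAC1 and SLC3A2, and a further gene set by the rule is not reported here. Promoter windows came from RefSeq. Protein sequences are not shown.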

Additional observations from a re-analysis of the deposited data

Results flagged for a closer look

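For 10 members the effect of anti-M8nAb at 24 h differed from that at 12 h in the test of the difference itself (edgeR, quasi-likelihood, two-sided, Benjamini-Hochberg adjusted p under 0.05). As the response at 24 h minus that at 12 h, on the log2 scale, the values were 1.60 for MAFF, 1.08 for SLC7A11, 0.55 for GSTO1, 0.51 for GPX8, 0.45 for HMOX1, 0.38 for HMOX2, 0.35 for GCLC, 0.33 for ABCC1, 0.33 for SQSTM1 and 0.32 for MAFG. The call of MAFF was the single one of the 10 that was kept under all alternatives, and 4 were kept whichever library was left out. The causes of these differences were not tested.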

How the results depend on the processing

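Single calls of members were kept under all 18 alternatives for 9 of 24 at 12 h, 11 of 29 at 24 h and 1 of 10 differences between the times, and 0 were reversed. DESeq2 kept 21, 25 and 8 of them, and limma on log2(FPKM + 0.1) kept 16, 20 and 3. In limma on log2(FPKM + 1), log2(FPKM + 0.1) and log2(FPKM + 1) with no filter, the members higher at 12 h were 5, 5 and 4 and the other pathway genes 7, 9 and 5, the members with a different response were 3, 3 and 1, those lower with time in IgG were 1, 1 and 0, and the median log2 fold change at 24 h was 0.04 in each. With log2(FPKM + 1), 2 members were 2-fold higher at 24 h, with or without the filter. Without the filter 9 members were higher and 4 lower at 24 h, and 20 other pathway genes were higher. With no filter on low counts in edgeR, 6 members had a different response and 4 were lower with time in IgG, and in DESeq2 5 were. The replicate numbers did not pair the libraries (correlations of their deviations between -0.0372 and 0.0268), and with the replicate block 12 members were higher and 12 lower at 12 h, and 22 and 7 at 24 h.

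Leaving out 1 library at a time gave 9 to 15 members higher and 6 to 12 lower at 12 h, 19 to 22 higher and 4 to 7 lower at 24 h, 0 to 1 past 2-fold on each side at 12 h, 3 to 4 higher and 0 to 0 lower past 2-fold at 24 h, 5 to 10 with a different response, and 2 to 9 lower and 0 to 1 higher with time in IgG. For the other pathway genes the ranges were 10 to 20 higher and 12 to 21 lower at 12 h, and 28 to 33 and 14 to 21 at 24 h. The causes of these changes were not tested. Members near 1 CPM (ABCC2, OSGIN1) were limited by depth.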
